A study of Monodelphis domestica with 6 samples.

Results

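The genes of the DNA replication machinery were examined in the opossum Monodelphis domestica, a marsupial, before and after reprogramming of skin fibroblasts. The list held 40 gene symbols, named for the known roles of their proteins, and 34 of them had a row among the 35665 genes of the files. RFC2, POLD1, FEN1, LIG1, RPA2 and RPA3 had no row under these symbols, and 5 of them were not analysed here. The sixth, LIG1, the DNA ligase of replication, is the RefSeq name of LOC100616962, which was followed beside the list.

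The cells were wild-type neonatal skin fibroblasts (neoSFs), untreated and at early passage, from the inbred strains FD2M1 and LSD1, and iPSCs (monoiPSCs) made from the same fibroblasts with episomal plasmids for human cMYC, KLF4, LIN28, NANOG, OCT4 and SOX2. The plasmid set also carried a p53 fragment that blocks p53. There was 1 neoSF library for each strain and 1 monoiPSC library for each strain at passage 15 and at passage 25, which gives 2 neoSF and 4 monoiPSC libraries. Whether the 2 passages of a strain come from 1 clone is not settled by the sources used here. The p-values measure the spread between these libraries and are not taken to measure that between independent reprogramming events.

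DNA replication begins when the origin recognition complex (ORC), with CDC6 and CDT1, loads the ring of MCM2 to MCM7 onto DNA in G1. In S phase CDC45 and the GINS complex join the ring to make the active helicase. DNA polymerases, held to DNA by the PCNA clamp that the RFC complex loads, then copy the strands from nucleotides made with RRM1, RRM2 and TYMS. Transcription of many of these genes by E2F factors is known to follow cell proliferation, and pluripotent cells of other mammals are known for fast cycles with a short G1.

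The total count was 14278794 and 16982978 in the neoSF libraries and 28684754 to 35564261 in the monoiPSC libraries. The neoSFs were sequenced in-house with short single-end reads and the monoiPSCs by a service with longer paired-end reads, so the effects of the sequencing and of the cell type cannot be told apart. Levels are given as the normalized read count (NRC), the authors' DESeq-normalized value, which compares libraries for 1 gene and not genes with each other. Of 10 fibroblast markers, 9 had a row and all 9 were lower in monoiPSCs, with a summed NRC of 1663000 to 1808000 in neoSFs and 13750 to 15970 in monoiPSCs. All 7 pluripotency markers were higher, with POU5F1, SOX2, NANOG and LIN28A at no more than 3 counts in either neoSF library. Among markers of other cell types, the melanocyte genes did not move together. DCT, a pigment enzyme, had an NRC under 2 in both neoSF libraries and of 4372 to 15280 in the monoiPSC libraries, MLANA had mean NRCs of 20.1 and 7.65, and TYR had 2.93 and 4.11. The summed NRC of 4 skeletal muscle markers was 334.5 to 1180 in neoSFs and 1341 to 10350 in monoiPSCs. That of 3 immune markers was 98.2 to 113 and 30.6 to 40.01, and these did not move together. CSF1R had mean NRCs of 74.6 in neoSFs and 7.85 in monoiPSCs, CD68 had 25.8 and 25.3, and PTPRC had 5.38 and 1.82. KRT14 (by its RefSeq name) and TP63, which define keratinocytes, were at 2 to 4 counts in each neoSF library and at 0 in the monoiPSCs, while CDH3 of the same list rose, from an NRC of 300.3 and 983.2 to between 2246 and 6037 (log2 fold change 2.81, adjusted p = 0.00455). The part of other cell types in the values of the replication genes was not tested.

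Most of the replication machinery was higher in monoiPSCs than in neoSFs. Of the 34 genes, 29 rose and 0 fell by the call rule used throughout, a change of 2-fold or more with an adjusted p no higher than 0.05 (quasi-likelihood test of edgeR, adjusted by Benjamini-Hochberg over 13072 genes). Of all genes tested, 24.3% rose and 21.6% fell by the same rule, 45.9% in all. By adjusted p alone 31 of the 34 were higher, against 32.8% of all genes tested. The median log2 fold change was 2.12 for the 34 genes and 0.08 for all genes tested. At an unadjusted p under 0.05, 2 genes were lower, ORC4 and ORC5, against 31.2% of all genes tested. By the call rule DESeq2 and limma each gave 0 of the 34 that fell, against 2947 and 3021 of the 13072 genes. By adjusted p alone both tools had ORC4 (0.0252 by DESeq2, 0.0396 by limma) and ORC5 (0.00616 and 0.0181) lower. The 5 genes that were not called were ORC3, ORC4, ORC5, ORC6 and GINS3. All monoiPSC values stood above both neoSF values in 30 of the 34 genes, against 36.1% of all genes tested, and below them in ORC4 and ORC5, against 37.1%. The same 34 genes took 0.0502% and 0.0631% of the counts in the neoSF libraries and 0.262% to 0.401% in the monoiPSC libraries. Every gene had at least 20 counts in every library, so none was near the detection limit of 3 counts. In bulk RNA, fewer cells of a type and less RNA per cell cannot be told apart, so these levels do not separate the share of cycling cells from the transcript content of each.

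**Figure D1:**
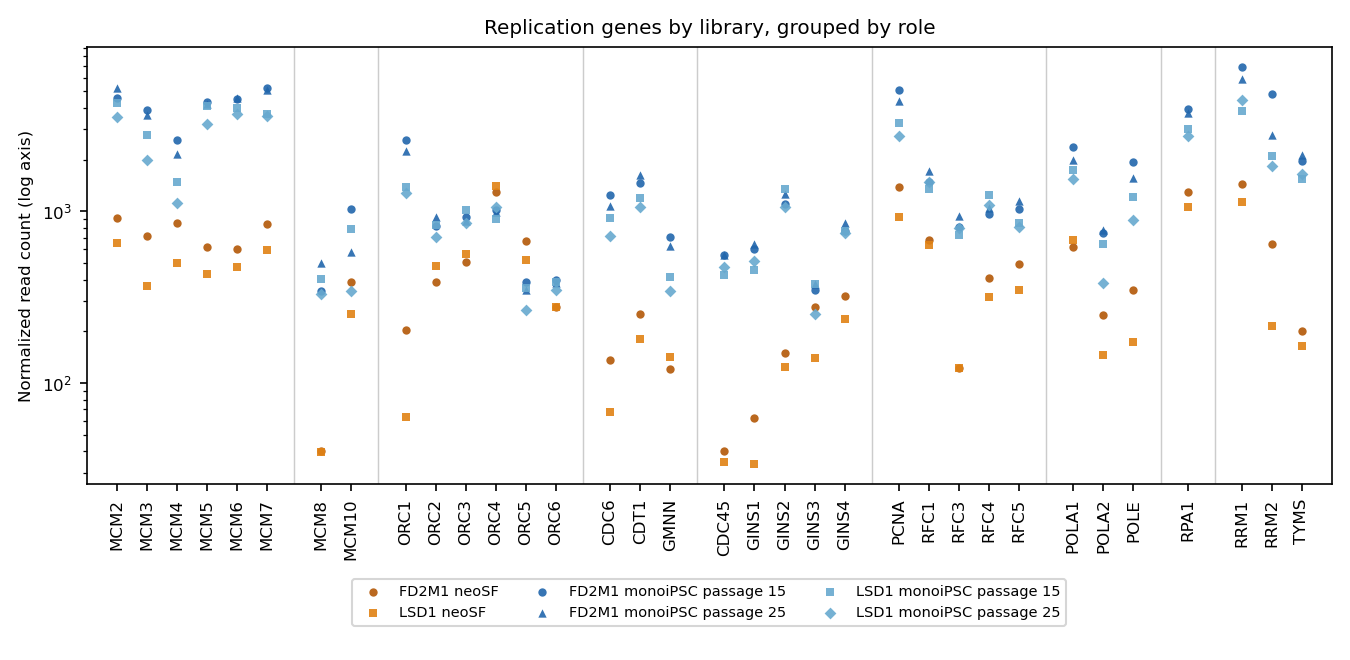
NRC (log axis) of each of the 34 replication genes in each of the 6 libraries, with the genes grouped by role from left to right and a point for each library. The orange neoSF points lie below the blue monoiPSC points in 30 genes, and above them in ORC4 and ORC5.

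All 6 genes of the MCM2 to MCM7 ring, the motor of the replicative helicase, rose, with log2 fold changes between 1.55 and 3.06 and a median of 2.66. MCM6 (gene 100012357, chromosome 4 of the MonDom5 assembly) rose most. Its NRC was 599.9 in the FD2M1 and 475.9 in the LSD1 neoSFs, and the monoiPSC values were 4495 and 4581 for FD2M1 and 3980 and 3695 for LSD1 at passages 15 and 25. This was an 8.34-fold difference (log2 fold change 3.06, standard error (SE) 0.19, adjusted p = 2.9e-05), and the lowest monoiPSC library stood far above the highest neoSF library. MCM5 followed with a log2 fold change of 3.02 (SE 0.24), then MCM7 with 2.71 (SE 0.27), MCM3 with 2.61 (SE 0.39) and MCM2 with 2.58 (SE 0.24). The estimates of MCM2, MCM3 and MCM7 differed by less than their standard errors.

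MCM4 (gene 100030676, chromosome 3) changed least in the ring. Its NRC was 853.8 in the FD2M1 and 498.6 in the LSD1 neoSFs, 2622 and 2162 in the FD2M1 monoiPSCs at passages 15 and 25, and 1483 and 1116 in the LSD1 monoiPSCs. The log2 fold change was 1.55 (SE 0.40, adjusted p = 0.0115). The lowest monoiPSC library, LSD1 at passage 25, was close to the FD2M1 neoSFs, and without the LSD1 neoSF library MCM4 was not called (log2 fold change 1.23, adjusted p = 0.0719). Wherever a neoSF library is left out, the remaining one is assumed to vary like the monoiPSC libraries, from which the spread is then estimated.

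Of the MCM proteins outside the ring, MCM8, which acts with MCM9 in repair by homologous recombination, rose 10.7-fold and MCM10, which helps to activate the helicase at the origin, rose 2.30-fold. The NRC of MCM8 (gene 100033291, chromosome 1) was 39.9 and 39.6 in the FD2M1 and LSD1 neoSFs. Among monoiPSCs it reached 345.4 and 502.5 for FD2M1 and 403.0 and 328.1 for LSD1 at passages 15 and 25 (log2 fold change 3.42, SE 0.31, adjusted p = 0.000107). MCM10 (gene 100013992, chromosome 8) was the only called gene of the list whose groups overlapped. Its NRC was 389.1 in the FD2M1 and 251.0 in the LSD1 neoSFs, 1028 and 582.7 in the FD2M1 monoiPSCs at passages 15 and 25, and 785.3 and 345.2 in the LSD1 monoiPSCs. LSD1 at passage 25 thus lay below the FD2M1 neoSFs. Its log2 fold change of 1.20 (SE 0.45, adjusted p = 0.0475) was not called without any 1 of 5 libraries. The adjusted p was 0.0661 without the FD2M1 neoSFs and 0.208 without the LSD1 neoSFs. It was 0.0856 without FD2M1 at passage 15, 0.0988 without LSD1 at passage 15 and 0.0658 without FD2M1 at passage 25.

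The 6 ORC subunits did not move together. ORC1 and ORC2 rose, ORC3 and ORC6 were higher by less than 2-fold, and ORC4 and ORC5 were lower by less than 2-fold. ORC1 (gene 100018853, chromosome 2), the subunit whose level is known to cycle in human cells, had the largest log2 fold change of the 34 genes. Its NRC was 204.1 in the FD2M1 and 63.6 in the LSD1 neoSFs, 2596 and 2245 in the FD2M1 monoiPSCs at passages 15 and 25, and 1395 and 1279 in the LSD1 monoiPSCs. The log2 fold change was 3.92 (SE 0.57, adjusted p = 0.000871), with a wide gap between the groups and a wide spread between the neoSFs. It was 4.99 without the FD2M1 neoSFs and 3.32 without the LSD1 neoSFs, and was called in both cases.

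ORC2 (gene 100016693, chromosome 7), a core subunit, rose 2.01-fold, just past the threshold. The mean NRC of ORC2 was 436 ± 66.4 (SD, n = 2) before and 823 ± 88.5 (SD, n = 4) after reprogramming. The groups did not overlap, and the log2 fold change of 1.01 (SE 0.19, adjusted p = 0.00267) moved below 1 in several alternative settings, the lowest being 0.87 without the FD2M1 neoSFs. It was 1.00, just short of 2-fold, without FD2M1 at passage 15 and without LSD1 at passage 15, and 0.95 without FD2M1 at passage 25.

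ORC3 (gene 100025381, chromosome 2), another core subunit, had an NRC of 507.5 in the FD2M1 and 564.8 in the LSD1 neoSFs, and of 927.2, 881.2, 1021 and 859.1 in the monoiPSCs of FD2M1 at passages 15 and 25 and of LSD1 at passages 15 and 25. The fitted log2 fold change was 0.88 (SE 0.16, adjusted p = 0.00246). ORC6 (gene 100015843, chromosome 1), the smallest subunit, had an NRC of 278.3 and 278.6 in the FD2M1 and LSD1 neoSFs. Its NRC in the monoiPSCs was 397.8 and 383.6 for FD2M1 and 386.1 and 347.4 for LSD1 (log2 fold change 0.54, SE 0.19, adjusted p = 0.0395). Both genes were past the p threshold and short of the 2-fold threshold, with no overlap between the groups.

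The NRC of ORC4 (gene 100013255, chromosome 4), an ATP-binding subunit, was 1301 in the FD2M1 and 1407 in the LSD1 neoSFs, and 1021, 989.8, 905.0 and 1053 in the monoiPSCs in the order used above. Its log2 fold change was -0.35 (SE 0.14, adjusted p = 0.0569). With the libraries scaled by total count alone, the sign of ORC4 turned, to 0.17. Its adjusted p in the edgeR test was 0.0355 with RLE scaling and 0.0397 with the raw count filter. DESeq2 gave 0.0252 and limma 0.0396, all with ORC4 lower. In edgeR the value was 0.159 with upper quartile scaling, 0.08 without an expression filter, 0.0623 with strain as block and 0.11 with passages summed. ORC5 (gene 100018063, chromosome 8), which also binds ATP, had an NRC of 670.2 and 518.1 in the FD2M1 and LSD1 neoSFs and of 389.1, 345.9, 359.0 and 267.4 in the monoiPSCs. The estimate was a log2 fold change of -0.71 (SE 0.22, adjusted p = 0.0247), past the p threshold and short of 2-fold. In the fit used throughout, by adjusted p alone and at 1.5-fold or more, ORC5 was the 1 lower gene of the 34. The shares of all genes tested were 29.4% and 27.7%. ORC4 and ORC5 were the members with a negative log2 fold change under the TMM scaling used here.

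**Figure D2:**
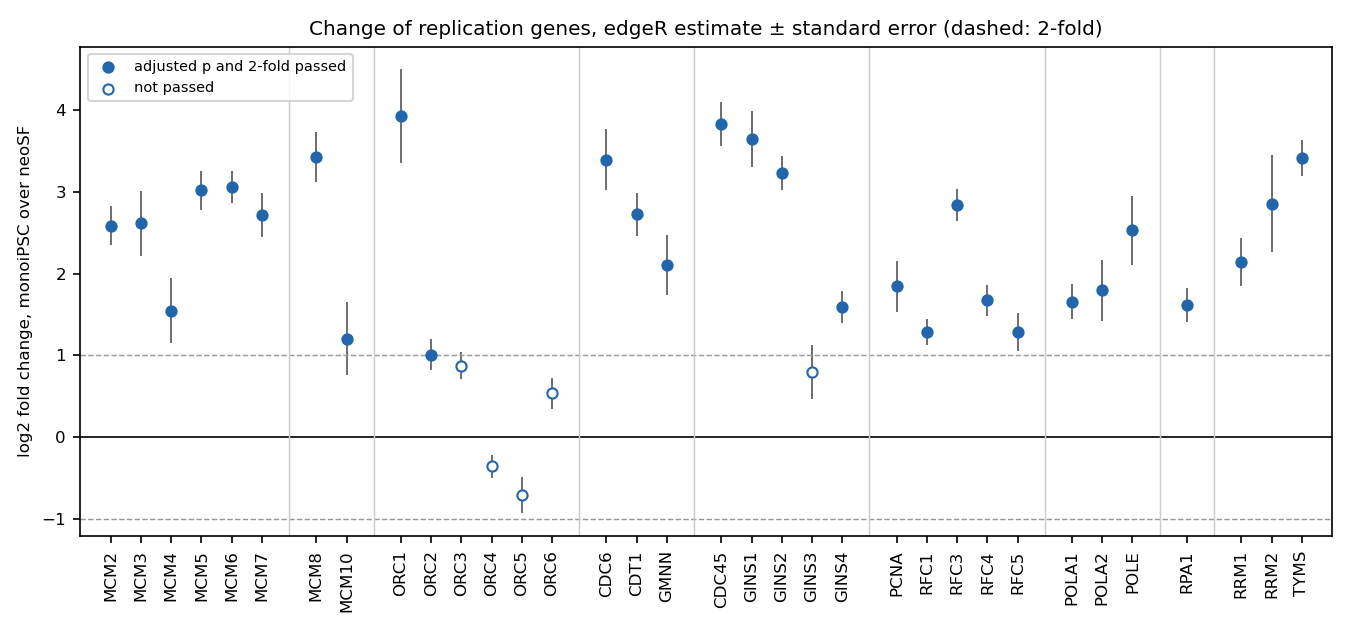
log2 fold change of monoiPSCs over neoSFs for each of the 34 genes, as the edgeR estimate with its standard error, grouped by role; filled points passed the adjusted p and the 2-fold threshold (dashed lines). The ORC group runs from 3.92 for ORC1 to -0.71 for ORC5, while every gene of the MCM2 to MCM7 group passed.

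All 3 licensing factors rose. CDC6 (gene 100016182, chromosome 2), the ATPase that recruits the MCM ring to ORC, had an NRC of 135.6 in the FD2M1 and 67.6 in the LSD1 neoSFs, 1242 and 1075 in the FD2M1 monoiPSCs at passages 15 and 25, and 910.2 and 718.3 in the LSD1 monoiPSCs. This was a 10.5-fold difference (log2 fold change 3.39, SE 0.38, adjusted p = 0.000255). CDT1, which brings the ring to the origin, went from an NRC of 216 ± 51.5 (SD, n = 2) to one of 1338 ± 252 (SD, n = 4) in the monoiPSCs, with a log2 fold change of 2.72 (SE 0.26). GMNN (gene 100024101, chromosome 3), which encodes geminin, the inhibitor of CDT1, had an NRC of 119.9 and 141.4 in the FD2M1 and LSD1 neoSFs. In the monoiPSCs GMNN was at 706.8 and 625.3 for FD2M1 and at 416.4 and 341.8 for LSD1 (log2 fold change 2.10, SE 0.37, adjusted p = 0.00202). Each licensing factor was thus higher in every monoiPSC library than in either neoSF library, and the LSD1 monoiPSCs had the lower levels of each.

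Among the helicase activators, CDC45, GINS1, GINS2 and GINS4 rose and GINS3 was not called. CDC45 (gene 100029459, chromosome 3) had an NRC of 40.2 and 34.6 in the FD2M1 and LSD1 neoSFs and of 558.8, 553.0, 423.6 and 475.4 in the monoiPSCs of FD2M1 at passages 15 and 25 and of LSD1 at passages 15 and 25. The 14.2-fold difference (log2 fold change 3.83, SE 0.27, adjusted p = 4.0e-05) was the second largest of the list. GINS3 (gene 100025116, chromosome 1) had an NRC of 276.4 in the FD2M1 and 140.4 in the LSD1 neoSFs, and of 345.7, 375.8, 379.1 and 252.5 in the monoiPSCs. The groups of GINS3 overlapped, because LSD1 at passage 25 lay below the FD2M1 neoSFs. Its log2 fold change was 0.80 (SE 0.33, adjusted p = 0.0706). It was 1.37 without the FD2M1 neoSFs and 0.41 without the LSD1 neoSFs. The other 3 subunits of the same 4-subunit complex had log2 fold changes of 3.64 (GINS1, SE 0.34), 3.23 (GINS2, SE 0.21) and 1.59 (GINS4, SE 0.19).

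PCNA, the sliding clamp, and the 4 RFC subunits with a row rose, by a median log2 fold change of 1.67. PCNA averaged an NRC of 1157 ± 329 (SD, n = 2) before and 3886 ± 1058 (SD, n = 4) after reprogramming, with a log2 fold change of 1.85 (SE 0.31). RFC3 (gene 100020774, chromosome 4), a small subunit of the clamp loader, rose most. Its NRC was 121.6 and 122.9 in the FD2M1 and LSD1 neoSFs and 814.9, 934.7, 723.3 and 797.6 in the monoiPSCs of FD2M1 at passages 15 and 25 and of LSD1 at passages 15 and 25 (log2 fold change 2.84, SE 0.20, adjusted p = 4.0e-05). RFC1 (gene 100022156, chromosome 5), the large subunit, had an NRC of 684.6 and 639.5 in the neoSFs and of 1488, 1719, 1349 and 1482 in the monoiPSCs in the same order (log2 fold change 1.28, SE 0.16, adjusted p = 0.000422). RFC5 (gene 100023612, chromosome 3) shared this value, with an NRC of 494.1 and 350.2 in the neoSFs and of 1025, 1146, 853.3 and 815.1 in the monoiPSCs. RFC4 lay between, at a log2 fold change of 1.67 (SE 0.19). In each of these 5 genes the monoiPSC libraries lay above both neoSF libraries.

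The 3 polymerase genes with a row also rose. POLE (gene 100027569, chromosome 3), the catalytic subunit of the leading-strand polymerase epsilon, had an NRC of 348.7 in the FD2M1 and 173.4 in the LSD1 neoSFs, 1930 and 1574 in the FD2M1 monoiPSCs at passages 15 and 25, and 1215 and 893.4 in the LSD1 monoiPSCs (log2 fold change 2.53, SE 0.42, adjusted p = 0.0016). POLA1 (gene 100011328, chromosome 4), the catalytic subunit of the polymerase that starts each new strand, had an NRC of 615.8 and 681.6 in the FD2M1 and LSD1 neoSFs and of 2373, 1987, 1752 and 1538 in the monoiPSCs. The fitted log2 fold change was 1.66 (SE 0.22, adjusted p = 0.000523), and that of POLA2, its partner subunit, was 1.80 (SE 0.37). The neoSFs of the strains lay further apart for POLE than for POLA1. The log2 fold change of POLE was 3.13 without the FD2M1 neoSFs and 2.13 without the LSD1 neoSFs.

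RPA1 (gene 100018386, chromosome 2), the large subunit of the complex that coats single-stranded DNA, had an NRC of 1296 and 1055 in the FD2M1 and LSD1 neoSFs and of 3939, 3753, 3036 and 2761 in the monoiPSCs. It rose 3.07-fold (log2 fold change 1.62, SE 0.21, adjusted p = 0.000512). LOC100616962, named LIG1 by RefSeq, averaged an NRC of 215 ± 29.2 (SD, n = 2) before and 1569 ± 304 (SD, n = 4) after reprogramming, and rose 7.79-fold (log2 fold change 2.96, SE 0.25, adjusted p = 8.6e-05).

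The 3 genes of deoxynucleotide synthesis rose. TYMS (gene 100013725, chromosome 3), which makes dTMP, had an NRC of 202.0 and 163.1 in the FD2M1 and LSD1 neoSFs and of 1955, 2118, 1544 and 1649 in the monoiPSCs (log2 fold change 3.41, SE 0.22, adjusted p = 3.2e-05). RRM1 (gene 100013713, chromosome 4), the large subunit of ribonucleotide reductase, had an NRC of 1439 and 1128 in the neoSFs and of 6951, 5931, 3832 and 4449 in the monoiPSCs (log2 fold change 2.14, SE 0.29, adjusted p = 0.000649). RRM2, the small subunit made in S phase, had an NRC of 643.7 in the FD2M1 and 213.4 in the LSD1 neoSFs, 4812 and 2769 in the FD2M1 monoiPSCs at passages 15 and 25, and 2092 and 1836 in the LSD1 monoiPSCs. Its log2 fold change was 2.85 (SE 0.59, adjusted p = 0.0044), the largest standard error among the 34 genes. Without the FD2M1 neoSFs the log2 fold change of RRM2 was 3.85, and without the LSD1 neoSFs it was 2.28. RRM2 was high in FD2M1 at passage 15 and low in the LSD1 neoSFs, with no overlap between the groups.

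Ratios between genes within a library do not depend on how libraries are scaled, and 7 were compared between neoSFs and monoiPSCs by an exact permutation test, two-sided. The smallest p that 4 libraries against 2 allow is 0.0667, so no ratio could pass 0.05. ORC1 over ORC2 was at log2 ratios of -0.93 and -2.92 in the FD2M1 and LSD1 neoSFs and between 0.74 and 1.65 in the monoiPSCs, which is 8.34-fold higher on average. The mean log2 difference of 3.06 was 4.06 without the FD2M1 neoSFs and 2.06 without the LSD1 neoSFs. CDC6 over ORC2 was 5.34-fold higher, from log2 ratios of -1.52 and -2.84 in the neoSFs to between 0.02 and 0.59 in the monoiPSCs. Its difference of 2.42 was 3.08 without the FD2M1 neoSFs and 1.76 without the LSD1 neoSFs. RRM2 over RRM2B, its p53-induced counterpart that serves cells outside S phase, was 6.98-fold higher, from log2 ratios of 0.03 and -1.57 in the neoSFs to between 1.55 and 2.95 in the monoiPSCs. The difference of 2.80 was 3.60 without the FD2M1 neoSFs and 2.00 without the LSD1 neoSFs. MCM10 over MCM8 and MCM2 over MCM8 were lower in monoiPSCs, with mean differences of -2.27 and -0.80 on the log2 scale. In these 5 ratios the groups did not overlap and the exact permutation p was 0.0667, or 0.0934 with Benjamini-Hochberg adjustment over the 7 ratios. Among single genes tested, all monoiPSC values stood above both neoSF values in 36.1% and below them in 37.1%. The share of ratios of other gene pairs without overlap was not computed, so the lack of overlap is not read as particular to these ratios.

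CDT1 over GMNN, the licensing factor over its inhibitor, had a mean log2 ratio of 0.71 ± 0.51 (SD, n = 2) before and 1.40 ± 0.26 (SD, n = 4) after reprogramming. The groups overlapped, since the FD2M1 neoSFs (1.08) lay above FD2M1 at passage 15 (1.04), and the exact permutation p was 0.133. The mean difference was 0.69, and 0.32 without the LSD1 neoSF library and 1.05 without the FD2M1 neoSF library. RFC1 over RFC4 differed by -0.39 on the log2 scale, without overlap between the groups and with an exact permutation p of 0.133.

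**Figure D3:**
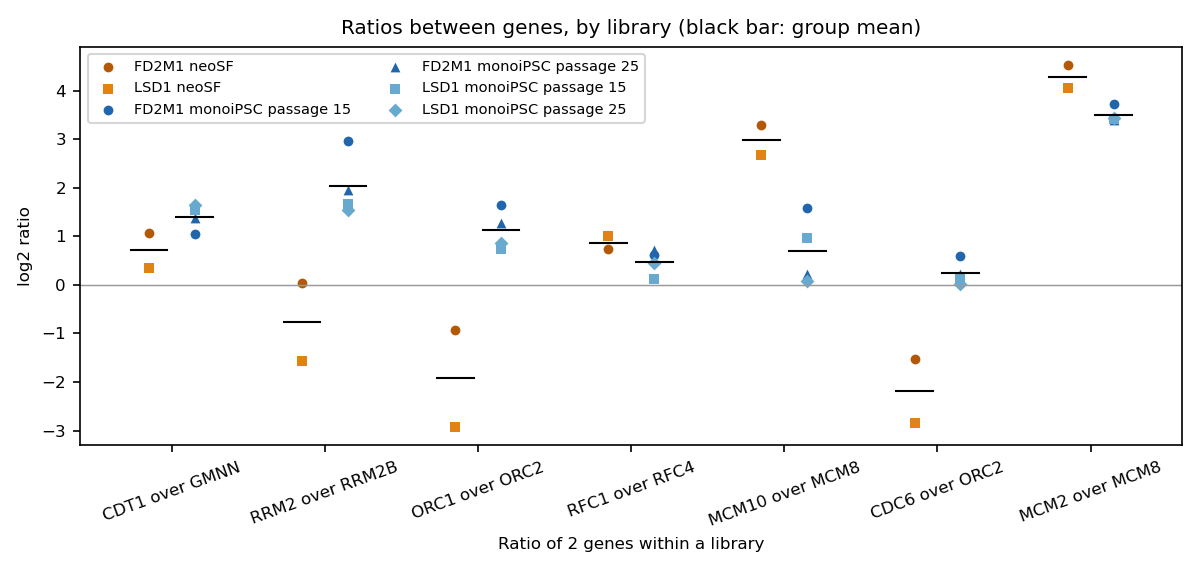
log2 ratio of 2 genes within each library for 7 ratios, with neoSFs (orange) at the left and monoiPSCs (blue) at the right of each label and a black bar at each group mean. ORC1 over ORC2, CDC6 over ORC2 and RRM2 over RRM2B lie higher in every monoiPSC library, MCM10 over MCM8 lies lower, and CDT1 over GMNN overlaps.

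Within the monoiPSCs, the replication genes were mostly lower in the LSD1 than in the FD2M1 line. The fitted log2 difference was negative in 31 of 34 genes, with a median of -0.35, against 48.9% of the 12252 genes expressed in monoiPSCs and a median of 0.01. In 23 of 34 genes both LSD1 libraries lay below both FD2M1 libraries, against 22.6% of all genes. None of the 34 was called (edgeR's quasi-likelihood test with passage as a covariate, which called 0% of all genes), and at an unadjusted p under 0.05 there were 15, each lower in LSD1, against 7.01% of all genes. DESeq2 gave an adjusted p of at most 0.05 to MCM4, ORC1 and RRM2, each lower in LSD1, against 0.955% of all genes, and none of the 34 was lower by 2-fold as well, against 0.588%. The limma test gave none. At an unadjusted p under 0.05 there were 12 by DESeq2 and 11 by limma, each again lower in LSD1, against 4.78% and 5.4% of all genes. The lowest p of the edgeR test belonged to MCM4, with a log2 difference of -0.88 (SE 0.15, unadjusted p = 0.00108, adjusted p = 0.136). RRM2 had the largest difference, -0.89 (adjusted p = 0.176), and RFC4 the highest, 0.22 (adjusted p = 0.604).

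The neoSFs of the strains, with 1 library each and hence no test, differed in the same direction. The log2 NRC was lower in the LSD1 neoSFs in 27 of 34 genes, with a median difference of -0.41, against 51.7% of all genes tested and a median of -0.02. The difference was -1.68 for ORC1, -1.59 for RRM2, -1.01 for POLE and -1.004 for CDC6, and ORC2, with 0.31, was highest. Some markers of other cell types moved with the line in the monoiPSCs. The summed NRC of the skeletal muscle markers was 2202 and 1341 in FD2M1 at passages 15 and 25 and 5006 and 10350 in LSD1. Most of it was MYOG, a factor of muscle differentiation, and DES. MYOG was at 1527 and 985.5 in FD2M1 and 4135 and 5549 in LSD1, and DES at 562.7 and 314.6 and at 768.5 and 4213. The other muscle markers did not all follow. MYOD1 was at 103.3 and 35.14 in FD2M1 and 99.39 and 591.4 in LSD1. MYF5, at low counts, was at 8.942 and 5.648 in FD2M1 and 3.155 and 1.031 in LSD1. In the neoSFs the order of the muscle sum was the opposite, with 1180 in FD2M1 and 334.5 in LSD1. The summed NRC of the melanocyte markers was 5624 and 4379 in the FD2M1 and 15300 and 7861 in the LSD1 monoiPSCs, nearly all of it DCT, and CDH3 was at 2246 and 3969 in FD2M1 and at 6037 and 4733 in LSD1. Of the 9 fibroblast markers, 6 were lower in the LSD1 monoiPSCs, against 48.9% of all genes, with a median log2 difference of -1.10. In 5 of the 9 both LSD1 libraries lay below both FD2M1 libraries, against 22.6% of all genes. The part of these markers in the differences of the replication genes was not tested.

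**Figure D4:**
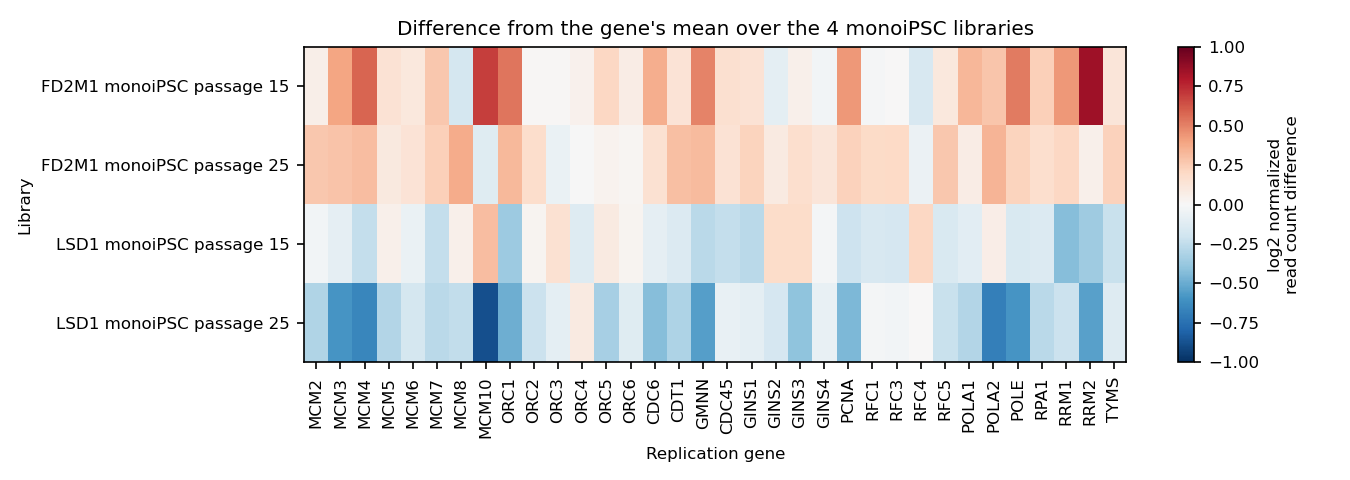
Difference of each replication gene's log2 NRC from its mean over the 4 monoiPSC libraries, with a row for each library and a column for each gene (red higher, blue lower). The FD2M1 rows are mostly red and the LSD1 rows mostly blue, with the widest spread in MCM10 and RRM2.

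Fewer of the replication genes passed an unadjusted p under 0.05 between passages than between lines. At passage 25 the log2 difference from passage 15 was negative in 25 of 34 genes, with a median of -0.11, against 51.5% of all genes and a median of -0.01. None of the 34 was called by edgeR with strain as a covariate, which called 0% of all genes, and at an unadjusted p under 0.05 there were 2, MCM10 and RRM2, against 9.35% of all genes. MCM10 was lower at passage 25 in both lines, with a log2 difference of -1.01 (unadjusted p = 0.00188, adjusted p = 0.259). DESeq2 called MCM10 alone among the 34 (log2 difference -1.01, adjusted p = 0.0257), against 0.939% of all genes, and limma called none (1 at an unadjusted p under 0.05, against 8.84% of all genes). Both passage 25 libraries lay below both passage 15 libraries in 4 of 34 genes, against 16.2% of all genes. The SD of the log2 NRC over the 4 monoiPSC libraries had a median of 0.24 for the 34 genes and 0.26 for all genes tested, with 0.09 for ORC6 and GINS4 and 0.68 for MCM10 at the ends.

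The median log2 change from neoSFs to monoiPSCs over the 34 genes was 2.24 in FD2M1 and 1.87 in LSD1. The test of the strain by cell type interaction used no fold threshold. By edgeR, DESeq2 and limma none of the 34 genes had an adjusted p of at most 0.05. Of all genes, 0.0841% had such a p by edgeR and 2.33% by DESeq2. At an unadjusted p under 0.05 edgeR found 1, GMNN, against 9.13% of all genes, limma found 1, against 11%, and DESeq2 found 0. The change of GMNN was 2.47 in FD2M1 and 1.42 in LSD1 (interaction -1.07 on the log2 scale, unadjusted p = 0.0456, adjusted p = 0.535). For ORC1 the changes were 3.56 and 4.39 (interaction 0.82, adjusted p = 0.553). With 1 neoSF library for each strain, these values rest on single fibroblast cultures. On simulated counts the interaction test recovered 51 (edgeR), 70 (DESeq2) and 41 (limma) of 200 genes changed 4-fold. The lack of genes at an adjusted p of at most 0.05 thus does not show that the strains changed alike.

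Other genes of replication, 48 with a row, gave 36 that rose and 2 that fell, against 24.3% and 21.6% of all genes tested. Their median log2 fold change was 1.75, against 0.08 for all genes tested. TOP2A, the topoisomerase that untangles copied DNA, rose most, at 5.09 (SE 0.29), followed by DUT, which removes dUTP, at 4.14 (SE 0.25). The NRC of TOP2A was 504.7 to 664.4 in neoSFs and 14510 to 22510 in monoiPSCs. The genes that fell were POLD4, the smallest subunit of polymerase delta, at -3.42 (SE 0.18, adjusted p = 1.7e-05), and SAMHD1, which breaks down dNTPs, at -1.27 (SE 0.21, adjusted p = 0.0014). Without the LSD1 neoSFs, 1 of these genes fell. POLD4 had an NRC of 3360 and 3505 in the neoSFs and of 248.2 to 369.8 in the monoiPSCs. Both neoSF libraries thus stood far above every monoiPSC library for POLD4, a subunit of the same class of enzymes as POLE and POLA1, which rose. The other polymerase delta and epsilon subunits of this list differed. POLE2 rose (2.24), while POLD2 (-0.11), POLD3 (0.21), POLE3 (-0.05) and POLE4 (-0.69, adjusted p = 0.00823, short of 2-fold) were not called. PRIM1, the primase subunit that makes the RNA start of each strand, was at an NRC of 110.2 and 112.7 in neoSFs and 50.5 to 76.8 in monoiPSCs (log2 fold change -0.70, adjusted p = 0.081). PRIM2, the other primase subunit, rose, from an NRC of 81.3 and 127.2 to between 251.9 and 408.7 (log2 fold change 1.81, adjusted p = 0.00255). PRIM1 and PRIM2, as partners of POLA1, and the other polymerase subunits were chosen for mention after their values were seen.

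The 26 mitosis genes all rose, against 24.3% of all genes tested, with a median log2 fold change of 3.68. ECT2 and TTK, of cytokinesis and the spindle checkpoint, were highest at 4.86 and 4.63, and TPX2 and ANLN lowest at 2.31 and 2.40. In the monoiPSCs 25 of the 26 were lower in LSD1 (median -0.20), against 48.9% of all genes. At passage 25, 3 were lower (median 0.20), against 51.5% of all genes. Whether the replication and mitosis lists differ was not tested.

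Of 16 genes of the E2F and RB family, which control the transcription of replication genes, 7 rose and 1 fell, with a median of 0.83. Among all genes tested, 24.3% rose and 21.6% fell. E2F2 was highest at 4.08 (SE 0.44), from 10 and 5 counts in the FD2M1 and LSD1 neoSFs to at least 353 in the monoiPSCs, followed by E2F8, a repressor, at 3.25. The gene that fell was RBL2, an RB-related repressor of quiescent cells, at -1.01 (SE 0.16, adjusted p = 0.00137), and RBL1 was at -0.45 (adjusted p = 0.154).

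Of 6 CDK inhibitors with a row, CDKN1A and CDKN2A fell and CDKN1B rose, with a median of -1.005. As 21.6% of all genes tested fell and 24.3% rose, these counts on 6 genes are not read as a result about the list. CDKN2A was lowest at -2.76 (SE 0.32, adjusted p = 0.000295) and CDKN2C was at -1.89 (adjusted p = 0.0806). CDKN1B and CDKN2D were highest at 1.58 (adjusted p = 0.00085) and 1.10 (adjusted p = 0.0658).

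Further lists cover other DNA synthesis. Of 12 translesion and repair polymerase genes, 5 rose and none fell, with a median of 0.68, from POLQ at 2.27 and MAD2L2 at 2.10 to POLK at -0.57 (adjusted p = 0.0619) and REV1 at -0.69 (adjusted p = 0.00556, short of 2-fold). Of 11 genes of mitochondrial DNA replication, 6 rose and none fell, with a median of 1.14, from DNA2, a nuclease of both compartments, at 4.11 and POLG2 at 1.55 to POLRMT at 0.30 (adjusted p = 0.271) and TK2 at -0.11 (adjusted p = 0.765). The p-values of these lists come from the same edgeR fit, in which 24.3% of all genes tested rose and 21.6% fell.

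**Figure D5:**
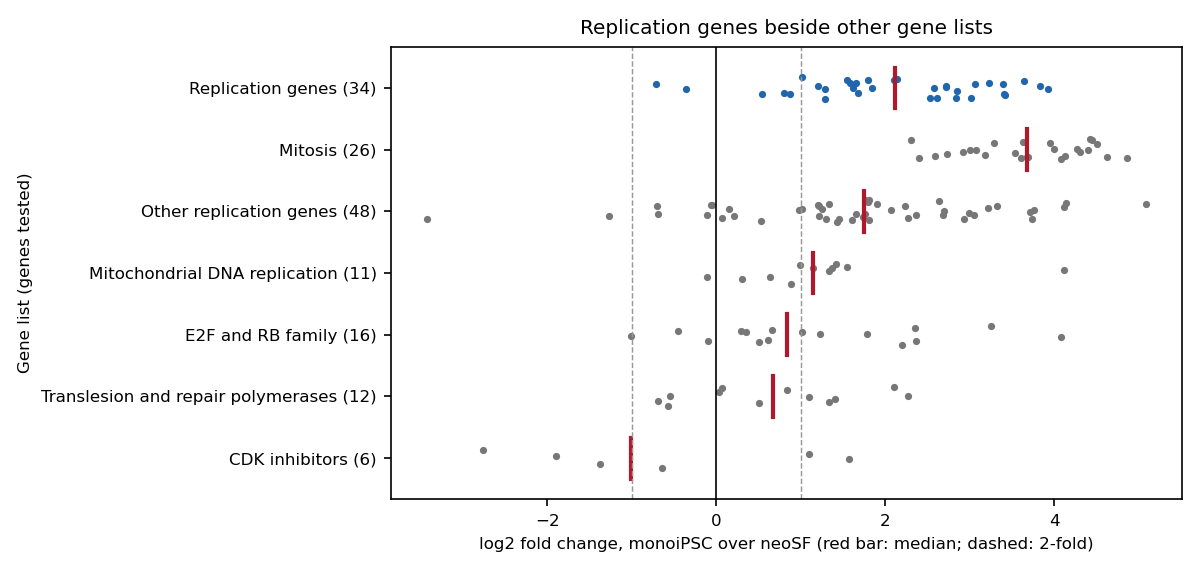
log2 fold change of monoiPSCs over neoSFs for each tested gene (points) of the replication list and of 6 other lists, with the median of each list as a red bar and 2-fold as dashed lines. The medians run from 3.68 for mitosis and 2.12 for the replication genes to -1.005 for the CDK inhibitors.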

How the data were processed

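The files hold RNA-seq values of 6 libraries, 2 of neoSFs and 4 of monoiPSCs. The authors mapped the reads to MonDom5 and quantified genes in StrandNGS, and deposited estimated counts per gene (87.1% of those above 0 are fractional) and log2 values of the DESeq-normalized count (NRC). Counts were rounded and scaled by TMM. The genes tested reached an NRC of 20 throughout 1 cell type, and were fitted with edgeR 4.0.16 in R 4.3.3 (quasi-likelihood, Benjamini-Hochberg adjustment, adjusted p at most 0.05, fold change at least 2), after the code was tested on simulated data. DESeq2 1.42.0, limma 3.58.1, other scalings and filters, summed passages and leaving out each library were alternatives.

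The members and lists were chosen with earlier results of these data known. Values in every library are given for the highest and lowest log2 fold change of each role, each member not called and the lowest p within monoiPSCs. Other lists give the 2 highest and 2 lowest.

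Each monoiPSC line came from the neoSF culture of its strain, so strain pairs the samples. The correlations of same-strain deviations across genes were 0.041, 0.010, 0.078 and -0.016. Depth limits cover counting error only, with 3 counts equal to an NRC of 4.75 to 5.85 in neoSFs and 1.55 to 1.88 in monoiPSCs. The strand and mate handling of the counting was not given in the sources used here.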

Additional observations from a re-analysis of the deposited data

How the results depend on the processing

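Over the alternative scalings, filters and tools, 27 to 32 of the 34 replication genes rose, and leaving out each library gave 27 to 29 that rose, 0 that fell and a median log2 fold change of 1.94 to 2.28. Scaling by total count alone moved the median of all genes from 0.08 to 0.61 and the calls over all genes from 3176 higher and 2824 lower to 4786 and 1931. It moved the members' median to 2.64, their excess over all genes staying at 2.04, turned ORC4 to 0.17, left 1 other replication gene that fell, and called GINS3 (1.33), ORC3 (1.40) and ORC6 (1.06). In the fit used throughout, by adjusted p alone and at a fold change of at least 1.5, 1 member fell, ORC5, against 29.4% and 27.7% of all genes. By adjusted p alone, ORC4 was lower as well with RLE scaling, the raw count filter, DESeq2 and limma. DESeq2 called 1 member between passages, MCM10. Without each library in turn, 1 to 2 other replication genes fell.

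MCM10 lost its call in 8 of the alternatives, with an adjusted p of 0.0529 to 0.208, and ORC2 in 9, with a fold change just short of 2. With strain as a replicate block, 29 members rose, 0 fell, the median was 2.06, and the block changed no member's call. The causes of these shifts were not tested. The single neoSF library of each strain limits every comparison of strains.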
